A study of Mus musculus with 11 samples.

Results

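Dnmt3b-deficient thymic lymphomas were compared with thymocytes of the same genotype taken before a tumor was present, using 5 of the 11 arrays of the series: the 3 samples titled as Dnmt3b-deficient lymphoma and the 2 titled as pre-tumor Dnmt3b-deficient thymocytes. All 21789 probe sets with 1 gene symbol were described, which cover 19938 genes, out of 28939 probe sets tested. RNA from FVB mouse thymus was measured on Affymetrix whole-transcript arrays from 300 ng of total RNA per sample. Both groups carried EμSR-tTA, Teto-MYC, Teto-Cre, Rosa26LOXPEGFP and Dnmt3b-/-: a transactivator made in blood cells switches on the MYC oncogene and the Cre recombinase, which deletes Dnmt3b and turns on an EGFP reporter. Pre-tumor mice were 24 days old, and their thymi were sorted for EGFP-positive cells before lysis. Lymphomas were harvested once disease was apparent and were lysed whole. Stage, age and sorting therefore cannot be told apart. The fit also held 3 normal thymocyte samples (EμSR-tTA, Teto-Cre, Rosa26LOXPEGFP, Dnmt3b+/+, 24 days) and 3 wild-type lymphomas (EμSR-tTA, Teto-MYC, Rosa26LOXPEGFP, Dnmt3bF/F with no Cre), whose levels are given for context. The labels leave unclear whether the normal thymocytes were sorted.

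Dnmt3b writes new methyl groups onto CG sites of DNA, and loss of methylation at a promoter can let a silent gene be read. MYC drives cell growth: it raises the machinery that makes ribosomes, nucleotides and proteins. Thymocytes pass through a double-positive stage, named for the coreceptors CD4 and CD8, at which the RAG recombinase rearranges the T cell receptor alpha gene and the immature cells await selection.

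Levels are deposited log2 signals, with a floor at 3.32, below which the table holds no value. Differences are the lymphoma mean minus the pre-tumor mean. Over all 35512 probe sets, with the 6573 left out of the test included, the 5 arrays had medians between 4.55 and 4.58. At the floor were 24.3% to 25.7% of their values. None of 12 measured thymocyte and T cell marker genes was at the floor in all samples of either group. The means of this list were 8.50 to 8.67 in lymphomas and 9.42 and 9.03 before tumors. No gene of 17 thymic epithelium and 16 dendritic cell markers was at the floor in all samples of either group. Their list means were far lower, at 4.76 to 4.97 and 4.93 to 5.04 in lymphomas. One lymphoma stood apart. On the first principal component of the 5 arrays (42.1% of the variance) lymphoma 1 lay at -17.9, near the pre-tumor samples at -25.0 and -27.3, while lymphomas 2 and 3 lay at 29.9 and 40.3. On the second component (31.1%) it lay at -44.7, away from the pre-tumor samples at 7.76 and 28.9 and from lymphomas 2 and 3 at 13.6 and -5.53. Results that turn on this sample are given without it as well. The labels call the samples of a group biological replicates.

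After limma and Benjamini-Hochberg adjustment, 16 of 21789 probe sets (0.0734%) passed an adjusted p of 0.05, of which 9 (0.0413%) rose and 7 (0.0321%) fell from pre-tumor thymocytes to lymphomas. None of the rises reached a fold change of 2, against 5 of the falls: Rps6ka6, Akr1c18, Gm4759, Tcp11l2 and Gstk1. All 16 had no overlap between the 3 lymphoma and the 2 pre-tumor values. At an unadjusted p under 0.05 there were 2158 probe sets (9.9%), 1317 higher (6.04%) and 841 lower (3.86%). All 16 calls remained when lymphoma 1 was left out, among 55 in total (39 higher, 16 lower). With only the 2 compared groups in the fit, the spread rested on 5 arrays and none of the 16 remained. Why they were lost was not tested. In that fit 1 other gene passed: Hoxc5, a homeobox factor of body patterning, by 0.55 (adjusted p = 0.0128).

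**Figure D1:**
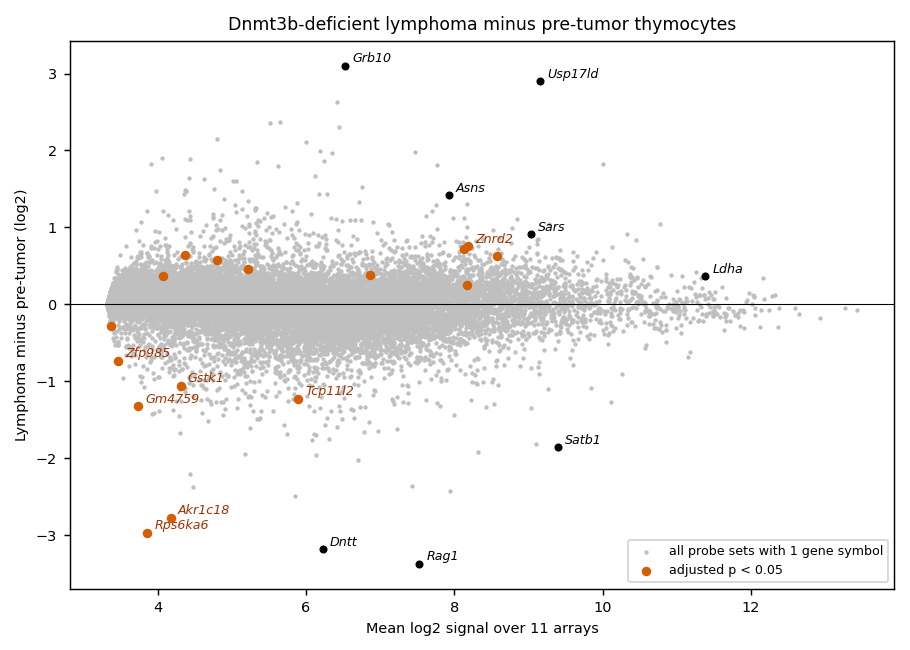
Each point is a probe set with 1 gene symbol, by its mean log2 signal over 11 arrays (horizontal) and the log2 difference of lymphomas minus pre-tumor thymocytes (vertical). Orange points are the 16 that passed, the lowest of them at -2.97 (Rps6ka6) and -2.78 (Akr1c18), and black points are labelled genes that did not pass.

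The falls were led by 2 genes read in the pre-tumor thymocytes and at the floor in every lymphoma. Rps6ka6, which encodes the ribosomal S6 kinase RSK4 of the ERK pathway, had signals of 5.97 and 6.62 in the pre-tumor samples and 3.32 on all other 9 arrays. The 2 groups were fully apart, and the fall was at least 7.85-fold (log2 difference -2.97, SE 0.15, adjusted p = 0.00116). Akr1c18 encodes an aldo-keto reductase that inactivates progesterone. Its signal was 5.72 and 6.47 before tumors and 3.32 in all 3 Dnmt3b-deficient and all 3 wild-type lymphomas, and 4.56 to 4.71 in normal thymocytes. It fell at least 6.85-fold (-2.78, SE 0.18, adjusted p = 0.00476), from levels above those of every other array. The SE and adjusted p of both genes rest in part on arrays held at the floor, which show no spread. The 2 pre-tumor values alone had a standard deviation of 0.46 for Rps6ka6 and 0.53 for Akr1c18.

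The next falls concerned signals close to the floor. Zfp985, a zinc finger gene, read 4.09 and 4.07 in the pre-tumor samples, 3.32, 3.32 and 3.38 in the lymphomas and 3.32 in all normal and wild-type samples, a difference of -0.74 that is a lower limit (adjusted p = 6.76e-06). Its other 2 probe sets were at the floor on every array. Mterf2, of the family that regulates mitochondrial transcription and translation, read 3.59 and 3.62 before tumors and 3.32 on the other 9 arrays, so that its fall was at least 1.22-fold (-0.28, adjusted p = 5.64e-06). The small p-values of both come with almost no spread between arrays held at the floor, and the call of Mterf2 was lost (adjusted p = 0.12) when probe sets at the floor on all arrays were left out.

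Tcp11l2 and Gstk1 were highest in normal thymocytes and lowest in tumors. Tcp11l2, a relative of the testis gene Tcp11, had signals of 4.78, 5.05 and 4.78 in the lymphomas against 6.25 and 5.94 before tumors, and 6.98 to 7.25 in normal thymocytes. It fell by 1.23 (SE 0.13, adjusted p = 0.0368). Gstk1, a glutathione transferase of mitochondria and peroxisomes, had 3.67, 3.51 and 3.63 in lymphomas, 4.57 and 4.76 before tumors and 5.52 to 5.82 in normal thymocytes, a fall by 1.06 (SE 0.10, adjusted p = 0.0294). In both genes the pre-tumor values lay between those of the other stages with no overlap. The seventh call, the predicted gene Gm4759, fell by 1.32 (adjusted p = 0.00805), with 2 of 3 lymphomas at the floor.

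The rises were small. Znrd2, a zinc ribbon protein gene, had signals of 8.86, 8.73 and 8.94 in lymphomas and 8.08 and 8.10 before tumors, a rise of 0.76 (SE 0.08, adjusted p = 0.0437). Its second probe set gave the same difference, 0.76, and did not pass (adjusted p = 0.113). Rpn1, a subunit of the complex that attaches sugars to proteins in the endoplasmic reticulum, had 8.99, 8.81 and 9.004 against 8.26 and 8.37 and rose by 0.62 (SE 0.07, adjusted p = 0.0437). Fanca, a core subunit of the Fanconi anemia complex that acts in repair of DNA crosslinks, had 7.13, 7.13 and 7.21 against 6.77 and 6.78 (rise 0.38, SE 0.04, adjusted p = 0.0281). Cox18, which inserts a subunit of cytochrome oxidase into the mitochondrial inner membrane, had 8.30, 8.31 and 8.39 against 8.10 and 8.06 (rise 0.25, SE 0.03, adjusted p = 0.0437). In these 4 genes the normal thymocytes were at or below the pre-tumor level, with means of 7.42, 8.30, 6.41 and 8.03.

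The remaining 4 named rises were genes whose pre-tumor values were the lowest of all 11 arrays. Lmcd1, a LIM domain protein that binds GATA factors, had signals of 4.67, 4.60 and 4.70 against 3.96 and 4.07 (rise 0.64, SE 0.05, adjusted p = 0.0173). Fndc3b, a fibronectin type III domain protein, had 5.12, 5.18 and 5.08 against 4.56 and 4.54 (rise 0.57, adjusted p = 0.0437). Hand1, a transcription factor of heart and placenta, had 5.20, 5.27 and 5.25 against 4.71 and 4.86 (rise 0.46, adjusted p = 0.0368). Normal thymocytes read higher than the lymphomas for Hand1, at 5.49 to 5.54. Bgn, which encodes the matrix proteoglycan biglycan and is a stroma marker, had 4.28, 4.13 and 4.14 against 3.84 and 3.79 (rise 0.37, adjusted p = 0.046). The ninth rise was the small nucleolar RNA Snora73a, by 0.73 (adjusted p = 0.0296).

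**Figure D2:**
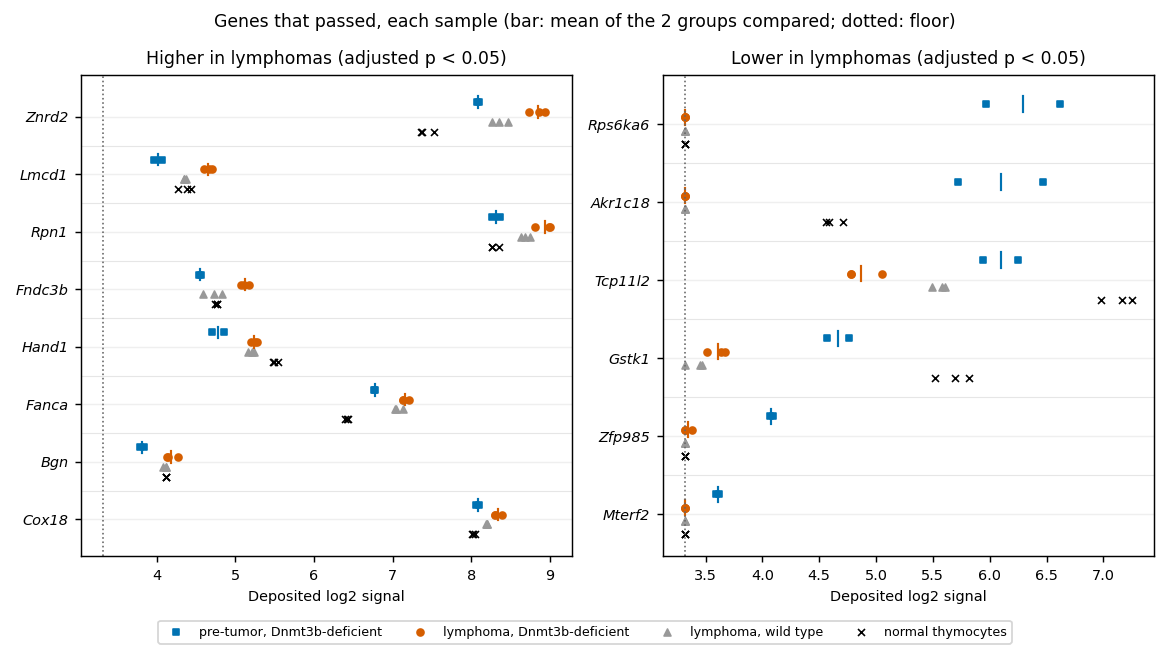
Points are the deposited log2 signal of each sample for the 14 named genes that passed, by group, with a bar at the mean of each of the 2 groups compared and a dotted line at the floor of 3.32. Rps6ka6 and Akr1c18 sit on the floor in all 3 lymphomas, and in Lmcd1, Fndc3b, Hand1 and Bgn both pre-tumor samples lie below every other array.

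Because so few genes passed, groups of genes are described by how many members had no overlap between the samples, read against all genes: over 19938 genes, all 3 lymphomas were above both pre-tumor samples in 14.2% and below both in 8.24%. These shares are no test, and no list had more than 1 member that passed. Over probe sets the shares were 13.7% and 8.26% (2994 higher, 1800 lower), and probe sets tied at the floor on all 5 arrays, 3441 in number, count in neither. Without these ties the shares were 16.3% and 9.81%. Most pathway lists hold no gene tied at the floor, so the shares over all genes are a low mark for them. The split depended on scaling: higher ones made up 62.5% of the non-overlapping probe sets as deposited, 52.1% after a new quantile normalization, and 24.9% with arrays centred on their medians, or 41.9% there without the 3441 tied ones, all of which that centring moved to the lower side.

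Genes of the double-positive stage were lower in the lymphomas. Of 17 measured members, 9 (52.9%) were below both pre-tumor samples and none above, and all 17 differences were negative, with a median of -0.89 beside 0.006 over all genes. None passed the adjusted threshold. Rag1, the catalytic subunit of the recombinase, had signals of 3.95, 6.01 and 5.997 in lymphomas, 9.61 and 7.77 before tumors and 11.09 to 11.45 in normal thymocytes (-3.37, SE 0.99, adjusted p = 0.336). The pre-tumor samples lay between the other stages but were themselves far apart. Dntt encodes the terminal transferase that adds bases at receptor gene joints. It had 4.73, 3.76 and 4.76 against 8.11 and 7.09, and 9.62 to 9.82 in normal thymocytes (-3.18, SE 0.39, adjusted p = 0.063). Dntt passed in 5 of the 23 alternative settings, among them without lymphoma 1 (adjusted p = 0.0466) and without probe sets of mean under 5 (adjusted p = 0.0314).

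Satb1, a chromatin organizer needed for thymocyte development, had signals of 8.88, 8.18 and 8.23 in lymphomas and 10.81 and 9.77 before tumors (-1.86, adjusted p = 0.19). Further members were chosen after their values were seen. Arpp21, an RNA-binding protein abundant in immature thymocytes, had 5.68, 4.75 and 4.23 against 7.24 and 6.05 (-1.76, adjusted p = 0.268). Themis, a T cell receptor signalling protein required for selection, had 7.61, 7.60 and 6.68 against 8.67 and 8.49 (-1.28, adjusted p = 0.359). In these 3 genes every lymphoma was below both pre-tumor samples. The coreceptors overlapped instead: Cd8a read 10.37, 9.83 and 8.51 against 11.39 and 10.30, and Cd4 read 8.50, 9.21 and 9.24 against 9.41 and 8.87. Rag2, the partner of Rag1, was at the floor in all lymphomas and in pre-tumor sample 2, and at 4.89 in pre-tumor sample 1. The list's mean level was 6.52 to 6.81 in the lymphomas, 8.18 and 7.51 in the pre-tumor samples, 9.23 to 9.47 in normal thymocytes and 6.37 to 6.74 in wild-type lymphomas. With 1 of the 5 samples left out, between 9 and 15 of the 17 were lower, the 15 without pre-tumor sample 2, while the share lower over all genes then ran from 11.5% to 18.5%. In bulk samples, fewer cells of a type and less RNA per cell cannot be told apart.

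Other T cell groups leaned the same way. T cell receptor complex and signalling genes had 10 of 22 members (45.5%) below both pre-tumor samples and 1 above, with a median of -0.27. Rasgrp1, the activator of Ras downstream of the receptor, had signals of 5.81, 7.71 and 7.99 against 8.72 and 8.20 (-1.29, adjusted p = 0.607), and Cd28, the costimulatory receptor, had 6.35, 7.64 and 7.44 against 8.07 and 8.06 (-0.92, adjusted p = 0.511). In both genes lymphoma 1 was the lowest of the 3. Genes of mature single-positive cells and of thymic exit had 8 of 18 members (44.4%) lower and 1 higher. Ccr9, the gut and thymus homing receptor, read 5.56, 5.84 and 4.87 against 8.80 and 6.77 (-2.37, adjusted p = 0.556). Cxcr4, the receptor for the stromal chemokine CXCL12, was the 1 member above both pre-tumor samples, among 5 with a positive difference, at 10.79, 10.58 and 10.79 against 9.96 and 9.40 (1.04, adjusted p = 0.263). T lineage transcription factors had 7 of 21 lower (33.3%), led by Id3, an inhibitor of E proteins, at 5.89, 5.03 and 6.24 against 6.90 and 7.18 (-1.32, adjusted p = 0.264). Cytokine receptor and JAK-SOCS genes had 10 of 24 lower (41.7%) and 1 higher. Without pre-tumor sample 2 the lower members were 11 of 21 transcription factors and 16 of 24 cytokine receptor genes, beside 16% of all genes, and without lymphoma 1 the median of the transcription factors went from -0.45 to -0.15. Adhesion and migration receptors had 10 of 28 lower (35.7%) and 4 higher (14.3%), with a median of -0.15. Without lymphoma 1 they had 10 lower (35.7%) and 9 higher (32.1%), with a median of -0.02. The shares over all genes were then 12.3% lower and 18.9% higher.

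Interferon-stimulated genes were lower in the lymphomas in 13 of 27 measured members (48.1%) and higher in 1, with a median of -0.25, and none passed. Trim30a had signals of 4.53, 5.28 and 4.41 against 6.36 and 5.90 (-1.39, adjusted p = 0.242). Rtp4, which codes for an interferon-induced chaperone of membrane receptors, had 3.99, 4.05 and 3.87 against 5.12 and 5.55 (-1.36, adjusted p = 0.19). Ddx58, the RNA sensor RIG-I, had 5.39, 5.34 and 5.85 against 6.59 and 6.43 (-0.98, adjusted p = 0.257). Of the factors that drive the response, chosen after their values were seen, Irf7 read 5.12, 4.83 and 5.17 against 5.93 and 5.91, and Irf9 read 5.76, 5.62 and 5.77 against 6.35 and 6.22. In all 5 of these genes every lymphoma was below both pre-tumor samples. Mx1 and Ifit3, which interferon induces strongly, were at the floor on all 5 arrays, so that their levels carry no order. List means were 4.79 to 4.95 in lymphomas, 5.21 and 5.16 before tumors, 5.66 to 5.85 in normal thymocytes and 4.73 to 4.85 in wild-type lymphomas. Leaving out any 1 of the 5 samples gave between 13 and 16 lower members, beside 11.5% to 18.5% of all genes.

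The list with the highest share of non-overlapping genes was that of amino acid response and transport, the genes of amino acid import, tRNA charging and the ATF4 stress response. Of 29 measured members, 22 (75.9%) were above both pre-tumor samples and none below, 28 differences were positive, and the median was 0.48. None passed over all probe sets, with the lowest adjusted p at 0.0862. With 1 of the 5 samples left out, 22 to 25 of the 29 were higher, while the share over all genes then ran from 18.9% to 28.3%. After a new quantile normalization 21 were higher (72.4%), beside 11.7% of all genes.

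Asns, which makes asparagine and is a standard ATF4 target, had signals of 9.59, 9.84 and 9.06 in lymphomas, 7.87 and 8.29 before tumors and 4.72 to 5.18 in normal thymocytes (1.42, SE 0.35, adjusted p = 0.253). The transporters Slc1a4, Slc7a5, Slc3a2 and Slc7a1 followed. Slc1a4, which carries serine and alanine, had 5.23, 5.31 and 5.46 against 4.32 and 4.39 (0.97, adjusted p = 0.255). Slc7a5, the light chain of the leucine carrier, had 10.13, 9.78 and 9.96 against 9.20 and 9.01 (0.85, adjusted p = 0.0954), and its heavy chain Slc3a2 had 10.58, 10.26 and 10.47 against 9.82 and 9.57 (0.74, adjusted p = 0.126). Slc7a1, which carries arginine and lysine, had 8.81, 8.94 and 8.76 against 8.13 and 8.02 (0.76, adjusted p = 0.14). Each of these carriers was above both pre-tumor samples in every lymphoma. Among the enzymes that charge tRNAs, Sars (serine) had 9.32, 9.37 and 9.61 against 8.42 and 8.63 (0.91, adjusted p = 0.0862). Yars (tyrosine) had 9.27, 9.03 and 8.78 against 8.02 and 8.09 (0.97, adjusted p = 0.117). Here the normal thymocytes were no lower than the pre-tumor samples, at 8.84 to 8.97 for Sars and 8.15 to 8.21 for Yars. Atf4, the factor at the head of the response, differed by 0.48 (7.87, 7.39 and 7.64 against 6.99 and 7.31, adjusted p = 0.467), and its target Ddit3 by 0.02. Slc7a11, the cystine carrier, was the single member with a negative difference, -0.49, and overlapped. Sars, Slc7a5, Slc3a2, Slc7a1, Atf4, Ddit3 and Slc7a11 were chosen after their values were seen.

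**Figure D3:**
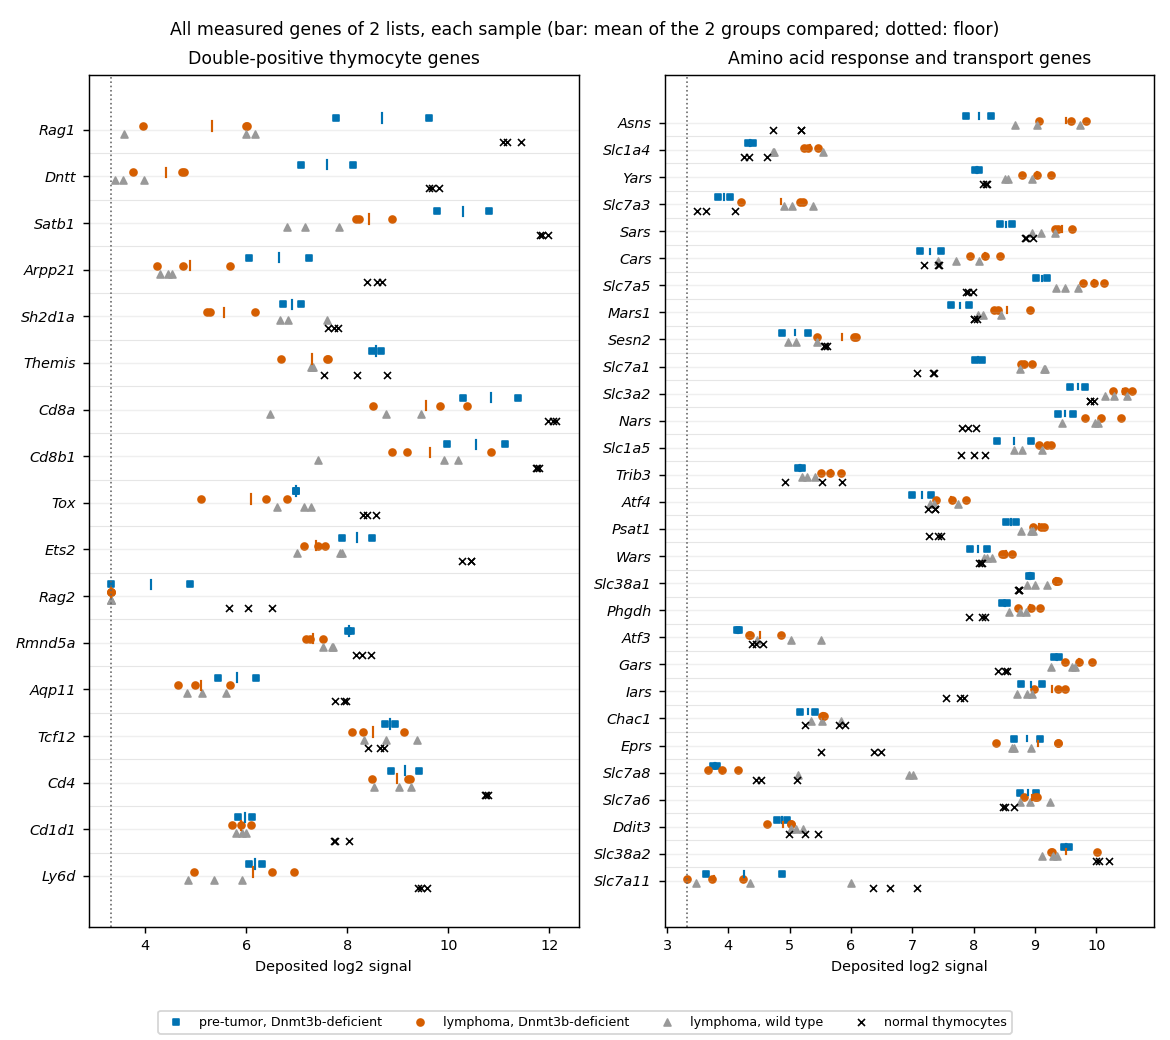
Points are the deposited log2 signal of each sample for all 17 measured double-positive thymocyte genes (left) and all 29 amino acid response and transport genes (right), by group, with a bar at the mean of each of the 2 groups compared. On the left the lymphoma mean is below the pre-tumor mean in all 17, and on the right above it in 28 of 29.

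Growth-related lists showed the same direction with smaller differences. MYC-induced ribosome biogenesis genes had 12 of 34 members (35.3%) above both pre-tumor samples and none below, with a median of 0.30. The count was 20 without lymphoma 3 and 23 without pre-tumor sample 2 (58.8% and 67.6%), beside 19.6% and 23.1% of all genes. Without pre-tumor sample 1 it was 14 (41.2%) with 3 lower (8.82%), beside 28.3% and 18.5% of all genes. The median was then 0.16. Bop1, which is needed for maturation of the large ribosomal subunit, had signals of 9.35, 8.56 and 8.72 against 8.10 and 8.02 (0.82, adjusted p = 0.253). Polr1b, the second largest subunit of RNA polymerase I, had 9.68, 9.29 and 9.43 against 8.78 and 8.73 (0.71, adjusted p = 0.169). In both genes lymphoma 1 was the highest. Nucleotide and one-carbon synthesis genes had 9 of 24 higher (37.5%) and 1 lower, with a median of 0.23. They had 16 higher (66.7%) without lymphoma 3 or without pre-tumor sample 2, beside 19.6% and 23.1% of all genes. Dhodh and Shmt2, enzymes of pyrimidine and of serine-derived one-carbon synthesis, both differed by 0.59, and Tyms, thymidylate synthase, was the member below both pre-tumor samples, at 7.40, 7.04 and 6.81 against 7.43 and 8.07. Glycolysis genes had 6 of 19 higher (31.6%) and none lower. With lymphoma 1, lymphoma 2 or either pre-tumor sample left out, 9 or 10 were higher (47.4% or 52.6%). The share over all genes then ran from 18.9% to 28.3%. Lower members numbered 2 (10.5%) without lymphoma 1 or without either pre-tumor sample, beside 12.3% to 18.5% of all genes. The largest difference of the list was a negative one. Ldhb, the lactate dehydrogenase subunit of heart muscle, had signals of 6.48, 4.44 and 4.93 against 7.07 and 6.22 and overlapped (-1.36, adjusted p = 0.681), and its second probe set, at -1.48, did not overlap (adjusted p = 0.405). Ldha, which turns pyruvate to lactate and was chosen after its values were seen, had 11.73, 11.76 and 11.72 against 11.33 and 11.41 (0.37, SE 0.05, adjusted p = 0.0681), and Pfkp, a phosphofructokinase, had 9.33, 9.61 and 9.27 against 8.47 and 8.72 (0.80, adjusted p = 0.15). The single probe set for mouse Myc was lower in the lymphomas, at 4.93, 4.29 and 4.63 against 5.87 and 5.87 (-1.25, adjusted p = 0.182), and the labels do not say if that probe set also reads the transgene.

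Replication and mitosis genes turned on which pre-tumor sample was used. DNA replication genes had 13 of 39 members (33.3%) higher and 1 lower. The lower one had the largest difference of the list: Rpa3, a subunit of the single-strand binding protein RPA, had signals of 5.37, 5.23 and 4.99 against 5.42 and 6.73 (-0.88, adjusted p = 0.614), and its second probe set overlapped. Cdt1, a licensing factor, had signals of 9.25, 9.02 and 9.28 against 8.54 and 8.11 (0.86, adjusted p = 0.172), and Mcm7, a helicase subunit chosen after its values were seen, had 9.89, 9.89 and 9.85 against 9.59 and 9.39 (0.38, adjusted p = 0.148). Without pre-tumor sample 1 the list had 14 higher and 13 lower members, and without pre-tumor sample 2 it had 26 and 1. Over all genes the shares were 28.3% higher and 18.5% lower without the first, and 23.1% and 16% without the second. Mitosis genes had 5 of 34 lower (14.7%) and 1 higher, with a median of -0.27. Cenpf, a kinetochore protein, read 5.42, 5.69 and 5.32 against 6.24 and 6.98 (-1.13, adjusted p = 0.267). Without pre-tumor sample 1, 27 of 34 were lower (median -0.57), and without pre-tumor sample 2, 5 were lower (14.7%) and 13 higher (38.2%), with a median of 0.04. Without lymphoma 2, 14 were lower (41.2%), beside 13.2% of all genes. The list's mean level was 7.40 to 7.71 in the lymphomas, 7.53 in pre-tumor sample 1 and 8.11 in pre-tumor sample 2.

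Of the remaining pathway lists, oncofetal and lymphoma-linked genes had 8 of 26 members (30.8%) higher and 3 lower. Lgals1, a galactose-binding lectin, had signals of 10.87, 10.87 and 11.07 against 9.999 and 10.03 (0.92, adjusted p = 0.434), and Wif1, a secreted Wnt inhibitor, had 4.36, 5.42 and 5.35 against 3.86 and 3.86 (1.19, adjusted p = 0.737). Wif1 was far higher in the wild-type lymphomas, at 6.65 to 9.44. Immediate early and dissociation genes had 8 of 30 lower (26.7%) and 4 higher (13.3%), beside 8.24% and 14.2% of all genes. Of 25 DNA damage response and repair genes, 2 were higher and 2 lower (8% each), and 16 differences were negative. Fanca was the 1 member of that list that passed. Lower members were 4 of 17 early double-negative (23.5%), 4 of 21 Polycomb (19%) and 4 of 23 Notch pathway genes (17.4%). Each of these 3 lists had 1 higher. The early double-negative genes had 11 positive and 6 negative differences, with a median of 0.16. Without lymphoma 1 they had 7 higher (41.2%) and 4 lower (23.5%), with a median of 0.41. The shares over all genes were then 18.9% higher and 12.3% lower. Lists for p53 targets, hypoxia, chaperones, sterol synthesis, oxidative stress, MHC class I, imprinted and germline genes had at most 4 members without overlap in either direction. These lists held 18 to 31 measured genes. Their highest shares were 17.4% higher (p53 targets) and 13.6% lower (hypoxia), beside 14.2% and 8.24% of all genes. The chaperone count turned on the samples. It was 8 of 18 higher (44.4%) without lymphoma 3 or without pre-tumor sample 2, beside 19.6% and 23.1% of all genes.

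**Figure D4:**
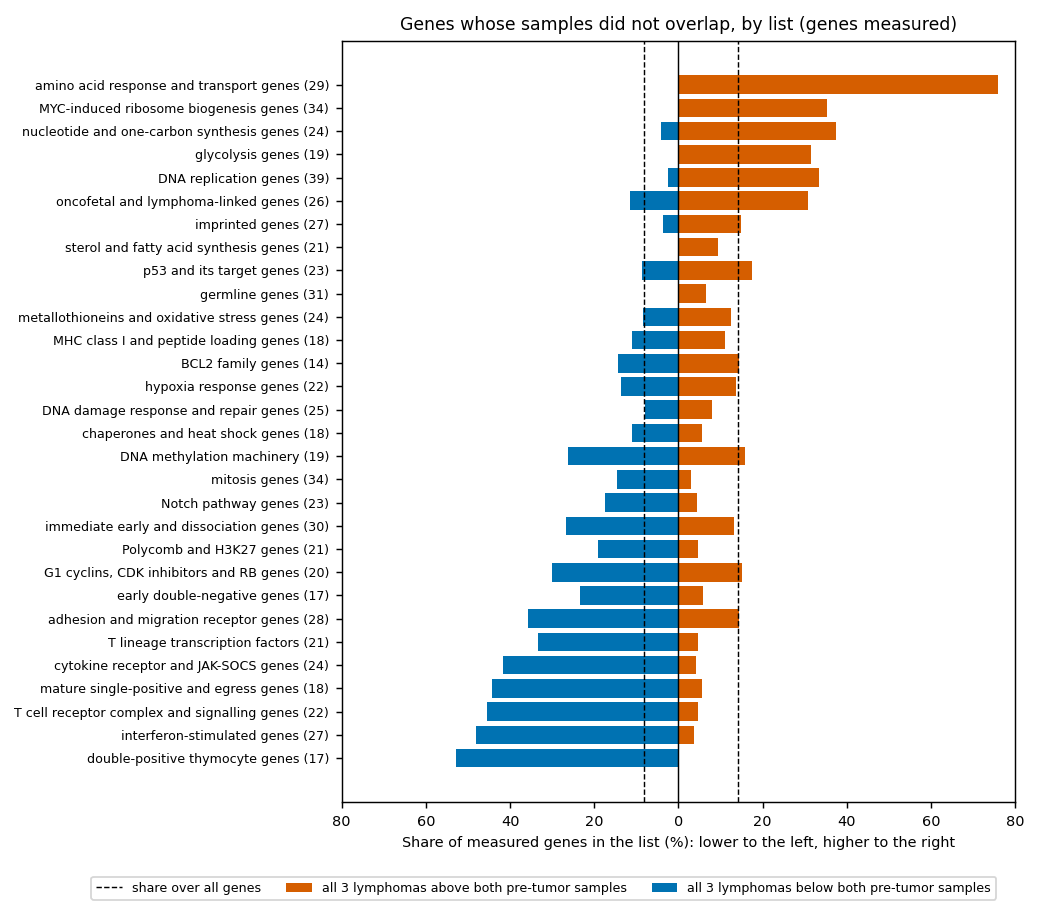
Bars give, for each of 30 pathway lists, the share of measured genes (in %) with all 3 lymphomas above both pre-tumor samples (right) or below both (left). Dashed lines mark the shares over all genes, 14.2% and 8.24%. Amino acid response genes reach 75.9% on the right, and double-positive thymocyte genes 52.9% on the left.

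Cell type markers differed between the stages too, and the pre-tumor thymi, unlike the tumors, had been sorted. Thymocyte and T cell markers were below both pre-tumor samples in 5 of 12 (41.7%) and above in none, with all 12 differences negative and a median of -0.48. Cd2, an adhesion receptor of T cells, had signals of 6.51, 7.50 and 8.27 against 9.13 and 9.36 (-1.82, adjusted p = 0.237). Neutrophil markers were above both pre-tumor samples in 7 of 15 (46.7%) and none was below, with list means of 3.98, 5.44 and 4.09 in the lymphomas and 3.89 and 3.82 before tumors. Lymphoma 2 held most of this signal: S100a8, a calcium-binding protein of neutrophils, read 3.54, 7.16 and 4.15 against 3.48 and 3.47, and without lymphoma 2 the list's median difference went from 0.69 to 0.12. Cxcr2, Il1r2 and Mmp8 were at the floor in both pre-tumor samples. Macrophage and monocyte markers were higher in 5 of 17 (29.4%) with list means of 4.09, 4.50 and 4.08 against 3.95 and 4.01. Their median difference was 0.09, and the count depended on scaling. After a new quantile normalization 3 were higher (17.6%), beside 11.7% of all genes. With arrays centred on their medians 4 were higher and 4 lower (23.5% each), beside 9.97% and 28.9% of all genes. Lyz2, the lysozyme of macrophages and neutrophils, read 5.15, 8.28 and 4.73 against 4.94 and 5.08. Adgre1, Cd163, Mrc1, Ms4a7 and Vsig4 were at the floor in both pre-tumor samples, and 3 of them in all lymphomas.

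Thymic epithelium markers were higher in 9 of 17 (52.9%) and lower in 1, with list means of 4.76 to 4.97 in lymphomas, 4.60 and 4.68 before tumors and 4.96 to 5.11 in normal thymocytes. Epcam, an epithelial adhesion protein, read 6.11, 5.11 and 5.91 against 4.51 and 4.60 (1.15, adjusted p = 0.394). Stroma and endothelium markers were higher in 5 of 23 (21.7%), Bgn being the 1 that passed, with Dcn, Emcn, Lum and Postn at the floor in both groups. B cell markers went the other way, with 6 of 17 (35.3%) lower in lymphomas and none higher. Igll1, a surrogate light chain of B cell precursors, had signals of 4.48, 4.68 and 4.72 in lymphomas against 6.57 and 5.55 before tumors (-1.43, adjusted p = 0.174), and Cd79a, a signalling chain of the B cell receptor, had 4.16, 3.32 and 4.17 against 6.10 and 4.58. B cell list means were 4.17 to 4.31 in lymphomas, 4.79 and 4.45 before tumors and 4.30 to 4.48 in normal thymocytes. The part of these cell types in the differences of the T cell, interferon and growth lists was not tested.

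**Figure D5:**
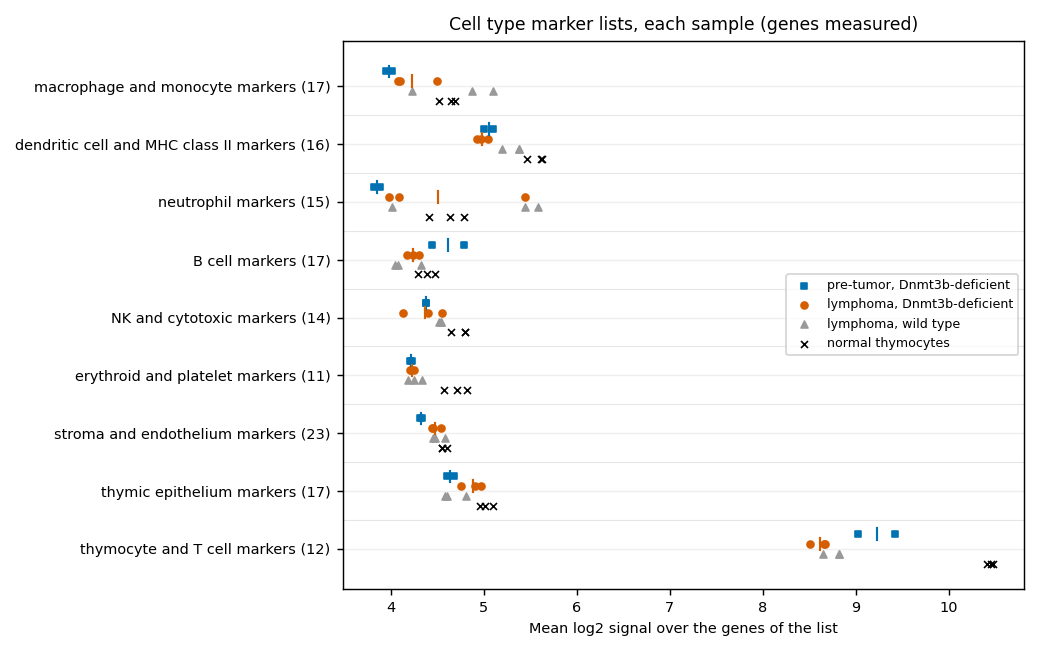
Points are each sample's mean log2 signal over the measured genes of 9 cell type marker lists, by group, with a bar at the mean of each of the 2 groups compared. Neutrophil markers stand at 5.44 in lymphoma 2 and at 3.98 and 4.09 in the other lymphomas, and B cell markers lie above all 3 lymphomas in both pre-tumor samples, at 4.79 and 4.45.

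Many differences beyond 2-fold did not pass, and in several of them the lymphomas were far apart. With no overlap and a difference of at least 1 there were 71 probe sets higher and 146 lower. The genes named from here to the end of the paragraph were chosen after their values were seen. Grb10, an imprinted adaptor that dampens insulin receptor signalling, had signals of 4.81, 8.76 and 7.87 in lymphomas against 4.17 and 3.92 (3.10, SE 1.22, adjusted p = 0.483), so that lymphoma 1 stood near the pre-tumor level. Epha3, an ephrin receptor, had 4.87, 5.37 and 6.20 against 3.60 and 3.55, with 3.32 to 3.76 in normal thymocytes and 3.41 to 3.68 in wild-type lymphomas (1.91, adjusted p = 0.14). Tex14, a germ cell protein of intercellular bridges, and Mcpt8, a basophil protease, were raised in lymphomas 2 and 3 alone: Tex14 read 4.17, 6.37 and 6.46 against 3.79 and 3.78, and Mcpt8 read 3.57, 6.12 and 5.76 against the floor in both pre-tumor samples. Without lymphoma 1, Epha3, Tex14 and Mcpt8 passed (adjusted p = 0.0426, 0.0272 and 0.000981). Ccnd1, the D1 cyclin, split the lymphomas in the opposite way, at 8.13 in lymphoma 1 beside 7.62 and 7.29 before tumors, and at 4.36 and 4.82 in lymphomas 2 and 3. Its difference of -1.69 (adjusted p = 0.67) became -2.87 (adjusted p = 0.00596) without lymphoma 1.

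Both groups carry the deletion of Dnmt3b, and its probe set gave no call between the stages. Dnmt3b read 5.26, 5.49 and 5.40 in lymphomas and 5.07 and 5.24 before tumors (0.23, SE 0.11, adjusted p = 0.577). All lymphomas lay above both pre-tumor samples, narrowly so for lymphoma 1. The labels do not place the probe set inside or outside the deleted part, so it checks no label. Dnmt1, the maintenance methyltransferase, differed by 0.11 (adjusted p = 0.669) and Dnmt3a, the other enzyme of new methylation, by -0.49 (adjusted p = 0.827). The gene Ment, which the array names Gm128, read 4.91, 5.28 and 5.20 in lymphomas and 5.19 and 5.20 before tumors (-0.07, SE 0.14, adjusted p = 1). Over the whole methylation machinery list, these 3 enzymes included, none of 19 passed, and 3 (15.8%) were higher and 5 (26.3%) lower without overlap.

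Promoter sequence was compared as a feature that the contrast did not use. RefSeq windows (build GRCm38.p6) of 300 bases, running from 250 before to 50 after the start of a gene, were matched by symbol for 15614 of the 19938 genes. The median number of CG dinucleotides per window was 15 over all matched genes, 16 over those with all lymphomas above both pre-tumor samples, 21 over those below, and 2 over genes at the floor on all 5 arrays. The floor genes are part of all matched genes but can be neither higher nor lower, so the sets differ in this too. The motif CACGTG, the E-box to which MYC and its partner MAX bind and which reads the same on both strands, was in 8.38% of all windows, in 9.59% of the higher genes and in 8.3% of the lower genes. It was in 3.91% of the genes at the floor on all 5 arrays. By list, the share was 0% in interferon-stimulated (0 of 19 windows) and double-positive genes (0 of 11) and 4.55% in amino acid genes (1 of 22). It was 24.1% in ribosome biogenesis genes (7 of 29), 33.3% in Polycomb genes (6 of 18) and 46.2% in germline genes (12 of 26). The last 2 are lists with at most 2 members higher. Shares of 20% or more were also found in dendritic cell markers (30.8%), MHC class I (21.4%), immediate early (20.8%) and chaperone genes (20%). None of 12 matched genes named among the calls held the motif. The matches are a description of letters and not of binding.

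The 250 bases before the start are shown for 4 genes, with CG dinucleotides in capitals: Rps6ka6 (chrX:111537960-111538209, minus strand) and Akr1c18 (chr13:4150647-4150896, minus strand), which fell to the floor, Dntt (chr19:41029025-41029274, plus strand), a double-positive gene with one of the widest differences, and Asns (chr6:7693210-7693459, minus strand), the amino acid gene with the largest difference. Their 300-base windows held 6, 5, 2 and 20 CG dinucleotides, so the first 3 lay below the median of all genes and Asns above it.
Rps6ka6: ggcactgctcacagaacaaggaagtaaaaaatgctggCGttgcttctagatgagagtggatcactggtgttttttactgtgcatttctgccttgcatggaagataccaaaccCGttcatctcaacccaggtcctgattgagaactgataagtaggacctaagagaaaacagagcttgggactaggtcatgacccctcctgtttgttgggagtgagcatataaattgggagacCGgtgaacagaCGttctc
Akr1c18: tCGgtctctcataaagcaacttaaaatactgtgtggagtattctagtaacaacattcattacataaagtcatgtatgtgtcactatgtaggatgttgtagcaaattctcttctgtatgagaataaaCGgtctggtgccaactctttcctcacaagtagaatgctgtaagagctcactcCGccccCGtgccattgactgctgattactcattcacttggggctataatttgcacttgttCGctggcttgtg
Dntt: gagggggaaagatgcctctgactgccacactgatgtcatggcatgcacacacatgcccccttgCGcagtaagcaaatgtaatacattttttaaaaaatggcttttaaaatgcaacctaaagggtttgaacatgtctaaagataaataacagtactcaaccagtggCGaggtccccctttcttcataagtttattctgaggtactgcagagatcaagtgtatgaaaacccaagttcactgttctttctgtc
Asns: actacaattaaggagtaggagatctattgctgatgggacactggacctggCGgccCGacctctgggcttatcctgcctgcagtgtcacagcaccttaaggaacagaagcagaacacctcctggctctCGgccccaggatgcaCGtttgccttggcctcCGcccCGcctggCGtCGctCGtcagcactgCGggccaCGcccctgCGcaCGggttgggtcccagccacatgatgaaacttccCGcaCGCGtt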

How the data were processed

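RNA of 11 thymus samples was measured on Affymetrix arrays, 1 per sample. The authors deposited log2 signals, made with Partek and RMA per the submitters' processing notes, which give no version. The order of steps and the genome build are not given in the sources used here. No deposited value lies below 3.32 (log2 of 10). Arrays have no read depth, so their number limits the precision. Gene symbols came from GEO's annotation of the array: 6573 of 35512 with the lowest IDs and no gene were left out, 21789 had 1 symbol, 1621 several and 5529 none. In R 4.3.3, limma 3.58.1 fitted the means of the 4 groups together (lmFit, then eBayes without trend). All adjusted p-values are limma's, Benjamini-Hochberg over 28939 probe sets. There was 1 comparison. The code was tested on simulated data.

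Named genes are the up to 15 largest rises and falls that passed without overlap (8 and 6 remained after predicted genes, small RNAs and receptor segments were left out), up to 6 passing members of each of 39 gene lists or else the 3 largest differences, and Dnmt3b, Dnmt1, Dnmt3a, Myc and Ment. A gene of a list was read from the probe set with the highest mean. The comparison, the members and the lists were chosen with earlier results of these data known. Lists are described by counts and medians, with no set test. Alternatives changed the groups fitted, the moderation, the scaling, the probe sets, the fold change required and the samples, and added the replicate number as a block.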

Additional observations from a re-analysis of the deposited data

How the results depend on the processing

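The count of 16 calls (9 higher, 7 lower, 5 at 2-fold) was unstable. It was 1 (1 higher, 0 lower, 0 at 2-fold) with only the 2 groups, 6 (2, 4, 2) without normal thymocytes, 12 (5 higher) with a variance trend, 11 (4 higher) with a robust trend, 6 (1, 5, 3) without moderation, 6 (0, 6, 3) after a new quantile normalization, 23 (7, 16, 10) with arrays centred on their medians, 14 (5, 9, 10) without probe sets at the floor on all arrays, 3 (0, 3, 3) without those of mean under 5, and 5 (0 higher) at 2-fold. The replicate number as a block gave 4 (1, 3, 1): Mterf2, Hand1, Zfp985 and Rps6ka6. Labels tie no animals to the numbers. Same-numbered lymphoma and pre-tumor samples correlated with r = 0.121 and 0.321 in their deviations from the group means, as 2 pairs. With 2 pre-tumor samples these deviations are mirror images, so the swapped pairings gave -0.121 and -0.321. Lymphoma 3, which has no same-numbered partner, gave 0.163 with pre-tumor sample 1. Such values cannot decide whether samples were paired. Leaving out 1 of the 11 samples gave 6 to 62 calls, 0 to 39 higher, 5 to 41 lower and 3 to 23 at 2-fold. Adjusting over probe sets with 1 symbol gave the same 16. Non-overlapping probe sets numbered 6364 lower under median centring, which moved all 3441 floor ties to that side. Without probe sets of mean under 5 they numbered 1302 higher and 1378 lower. With 1 compared sample left out they numbered 4037 to 5961 higher and 2514 to 4218 lower. By gene, Rps6ka6 was lost once (adjusted p = 0.241, only the 2 groups), Zfp985 under 2 alternatives (2-fold, only the 2 groups), and Bgn was called in 4 of 23 settings, the reported one included. Differences that turned with 1 sample left out were those of Gm128 (-0.143 to 0.0406), Idi1 (-0.817 to 0.127), Lyz2 (-0.0696 to 1.70), Lyz1 (-0.0432 to 0.973) and Cd4 (-0.432 to 0.109), and none of these passed. The cause of the moves was not tested apart from those named. A signal at the floor limits every value to a bound there.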

Other observations

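No gene of cell cycle entry or survival passed with all samples in the fit, and values are given for members with large differences. Of 20 measured G1 cyclin, CDK inhibitor and RB genes, 6 (30%) were below both pre-tumor samples and 3 (15%) above, beside 8.24% and 14.2% of all genes. Rb1, the retinoblastoma gene, had signals of 5.81, 6.49 and 6.03 in lymphomas against 7.53 and 7.44 (-1.37, adjusted p = 0.263), and Ccne2, a cyclin of the start of replication, had 5.22, 4.98 and 4.38 against 5.69 and 6.49 (-1.23, adjusted p = 0.305). Ccnd1, whose values are given above, passed without lymphoma 1 (-2.87, adjusted p = 0.00596). Cdkn1b, a CDK inhibitor, passed without lymphoma 3 (-1.045, adjusted p = 0.00607). Both were chosen after their values were seen. In the BCL2 family 2 of 14 were lower and 2 higher (14.3% each), which for the higher ones is near the share over all genes. The survival genes Bcl2 (5.06, 4.88 and 4.90 against 6.14 and 5.60, adjusted p = 0.117) and Bcl2l1 (5.27, 5.31 and 5.23 against 6.80 and 5.89, adjusted p = 0.185) were lower in every lymphoma, and Bcl2l2 (4.63, 4.85 and 4.93 against 4.54 and 4.03, adjusted p = 0.345) was higher. Bcl2 and Bcl2l1 passed in 1 alternative each, without pre-tumor sample 2 (adjusted p = 0.0238 and 0.00175).

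Sycp1, a synaptonemal complex protein of meiosis, was read at 7.19, 7.03 and 3.41 in the Dnmt3b-deficient lymphomas and at 6.52 and 7.83 in the pre-tumor samples, while all 6 normal and wild-type samples were at the floor. Lymphoma 3 thus lay near the floor, and the difference between the stages (-1.30, adjusted p = 0.827) did not pass. Zfp991, a zinc finger gene chosen after its values were seen, read 4.68, 4.09 and 4.69 in lymphomas and 6.74 and 6.97 before tumors (-2.37, adjusted p = 0.0878). A probe set annotated to both Zfp991 and Zfp985 with further zinc finger genes, which cannot be told apart on it, passed with a difference of -1.96 (adjusted p = 0.0054). Besides it, 3 probe sets with no symbol passed, of which 2 hold identical values (-2.43) and 1 fell by 0.71. Usp17ld, a deubiquitinase of a family with near-identical copies, so that its reading is uncertain, read 8.74, 9.07 and 10.27 in lymphomas, 6.68 and 6.25 before tumors and 9.80 to 10.99 in normal thymocytes (2.90, adjusted p = 0.152).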
